A study of Sus scrofa with 13 samples.

Results

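The 9 genes described here encode enzymes of cholesterol synthesis, namely HMGCS1, IDI1, FDPS, FDFT1, SQLE, LSS, CYP51A1, MSMO1 and DHCR7. They were chosen as a list of symbols, and all 9 were present among the 25322 Ensembl genes of both deposited count tables. RNA came from longissimus lumborum, the loin muscle, of 13 female pigs aged 6 months. Hampshire pigs had high (n = 3) or low (n = 3) loin weight and Pietrain pigs had high (n = 4) or low (n = 3) loin weight. The study asked which genes differ with loin weight within each breed, and it had picked unrelated pigs of extreme loin weight that were kept under the same housing and feeding. All pigs of a breed were counted in 1 table, so that breed cannot be told apart from anything else that differed between the tables.

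Cholesterol is built from acetyl-CoA through mevalonate, isoprene units and squalene to lanosterol, which is then trimmed to cholesterol. When sterol in the endoplasmic reticulum falls, SCAP escorts the transcription factor SREBP2 (gene SREBF2) to the Golgi, where proteases release it, and it raises transcription of most genes of the pathway. INSIG1 holds SCAP back when sterol is ample. Skeletal muscle makes part of its own cholesterol, and its isoprene units also feed ubiquinone, dolichol and protein prenylation.

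Total counts ranged from 11312755 to 20134612 per pig, and the 10 most abundant genes took 31.2 to 37.7% of counts in Hampshire and 26.4 to 29.8% in Pietrain. Levels are given in CPM, the counts of a gene relative to the total of its library, after TMM scaling over all 13 pigs. Markers of skeletal muscle (ACTA1, CKM, MYLPF, TNNC2, MYH1 and MYH7) were present in every pig. In Hampshire, the summed level of 3 adipocyte markers was 170 to 292 CPM with high against 54.4 to 67.3 CPM with low loin weight. For 8 macrophage markers it was 155 to 218 against 51.6 to 126 CPM, and for 5 fibroblast markers 1867 to 4850 against 732 to 1573 CPM, without overlap in any of these lists, while the other 6 lists overlapped. In Pietrain, the ranges of the high and low groups overlapped for all 9 marker lists.

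In Hampshire the enzymes did not move together with loin weight, with 4 log2 fold changes above 0 and 5 below. HMGCS1 and CYP51A1 were lower and FDFT1 was higher at high loin weight there, while the other 6 enzymes did not pass the test. A gene was called a differentially expressed gene (DEG) when its adjusted p-value was under 0.05 and its levels differed 1.2-fold or more, and 26.6% of all 12228 genes tested in Hampshire were DEGs, against 3 of 9 enzymes. Of all genes, 14.6% were lower DEGs and 12% higher DEGs, against 2 lower and 1 higher enzyme. The median log2 fold change of the 9 enzymes was -0.034 in Hampshire, beside 0.029 over all genes tested. In Pietrain, 0 of 9 enzymes and 0% of 12065 genes were DEGs by edgeR. The study, by contrast, reported DEGs in Pietrain with DESeq2 at the same thresholds, among them CYP51A1 as lower with high loin weight. The cause of this difference was not tested. The median of the enzymes there was -0.30, with 7 of 9 below 0, beside a median of 0.020 over all genes. At an unadjusted p under 0.05 there were 398 genes (3.3%) in Pietrain, among them HMGCS1 and CYP51A1, and DESeq2 called 1 gene, which was none of the enzymes. These are bulk samples, in which fewer cells of a type and less RNA per cell cannot be told apart.

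**Figure D1:**
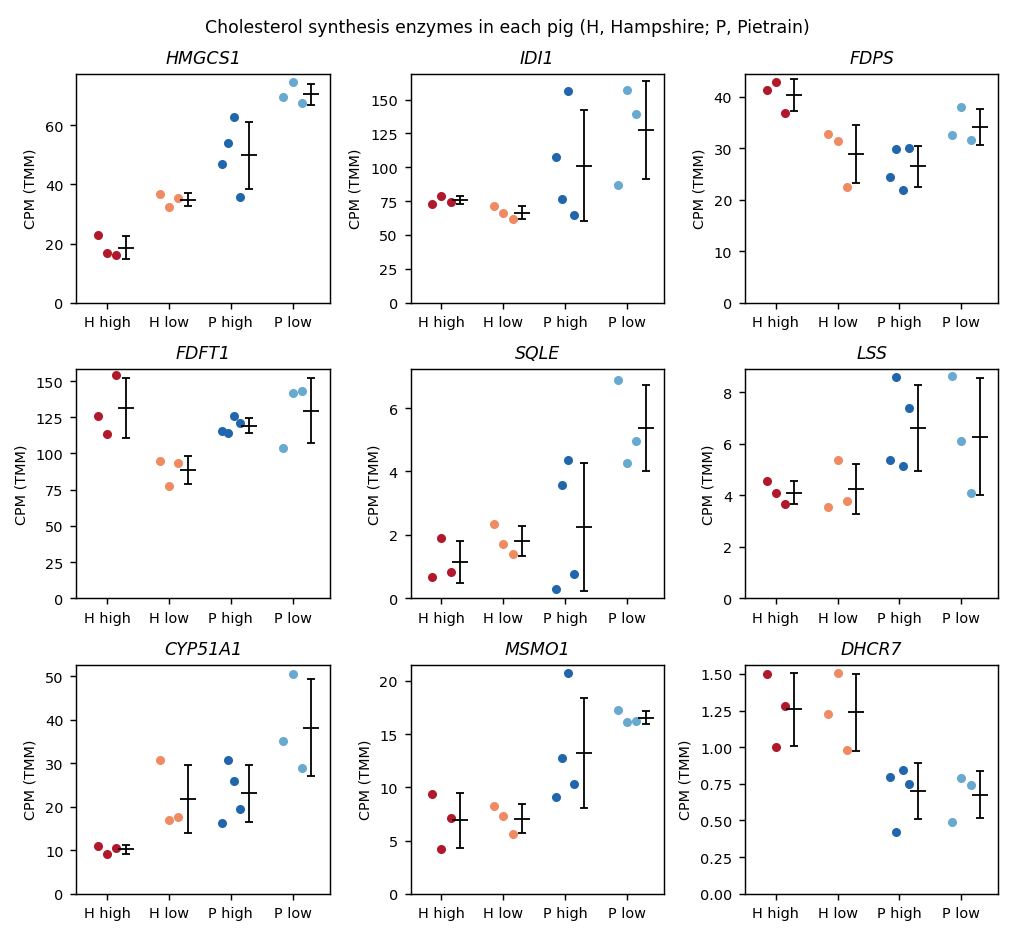
Levels of the 9 enzymes in CPM (vertical axes from 0) in Hampshire (H) and Pietrain (P) pigs with high or low loin weight, 1 coloured point per pig, with the group mean (dash) and SD (bar) in black. HMGCS1 and CYP51A1 are lowest in the Hampshire pigs with high loin weight, and SQLE ranges from 0.289 to 6.90 CPM.

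HMGCS1 (ENSSSCG00000016872, chromosome 16 of Sscrofa10.2 from 29433805 to 29454088) condenses acetyl-CoA with acetoacetyl-CoA to HMG-CoA at the entry of the pathway. In Hampshire it was at 23.0, 16.7 and 16.0 CPM in the high loin weight pigs 8, 9 and 10, and at 36.8, 32.5 and 35.4 CPM in the low loin weight pigs 1, 2 and 3. In Pietrain it was at 46.9, 53.9, 62.8 and 35.7 CPM in the high loin weight pigs 1, 2, 6 and 7, and at 69.5, 74.6 and 67.6 CPM in the low loin weight pigs 3, 5 and 8. The high group lay wholly below the low group in both breeds. The log2 fold change of high against low loin weight was -0.91 (SE 0.181, adjusted p = 0.00934 by Benjamini and Hochberg, edgeR's quasi-likelihood test) in Hampshire, and HMGCS1 stayed a DEG whichever Hampshire pig was left out. In Pietrain it was -0.47 (SE 0.204, adjusted p = 0.939, edgeR). HMGCS1 had the most regular order of groups, with means rising from Hampshire high (18.6 ± 3.86 CPM, SD, n = 3) through Hampshire low (34.9 ± 2.21, n = 3) and Pietrain high (49.8 ± 11.4, n = 4) to Pietrain low (70.6 ± 3.59, n = 3). Of these neighbours only Hampshire low and Pietrain high overlapped.

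The next 3 enzymes carry mevalonate products from isoprene units to squalene, and in Hampshire each of them was above the low group in every pig of the high group. IDI1 (ENSSSCG00000029066, chromosome 10 from 75367603 to 75370787) converts isopentenyl diphosphate to its isomer. Its range was 73.2 to 79.1 CPM with high and 62.1 to 71.5 CPM with low loin weight in Hampshire, a log2 fold change of only 0.18 (SE 0.147, adjusted p = 0.379, edgeR), which became -0.22 once a trend on gene length was removed. In Pietrain IDI1 varied from 64.4 to 156 CPM with high and from 87.0 to 157 CPM with low loin weight, and the groups overlapped.

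FDPS (ENSSSCG00000006512, chromosome 4 from 103291798 to 103304048) makes farnesyl diphosphate, from which sterols, ubiquinone, dolichol and prenyl groups all branch. It was at 41.3, 42.8 and 36.8 CPM in Hampshire pigs with high and at 32.8, 31.4 and 22.5 CPM in those with low loin weight. In Pietrain it was at 24.4, 29.8, 21.9 and 30.0 CPM with high and at 32.7, 38.1 and 31.6 CPM with low loin weight. High and low groups were apart in both breeds, in opposite order. The log2 fold change was 0.47 (SE 0.182, adjusted p = 0.0835, edgeR) in Hampshire and -0.33 (SE 0.191, adjusted p = 0.939) in Pietrain, so FDPS passed in neither. The difference between these effects was 0.84 (SE 0.259, adjusted p = 0.0723), which missed the threshold, whereas DESeq2 gave 0.85 with an adjusted p of 0.0274.

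FDFT1 (ENSSSCG00000026044, chromosome 14 from 16164826 to 16199406), squalene synthase, takes the first step committed to sterols. It was at 126, 114 and 154 CPM in Hampshire pigs with high and at 94.7, 77.3 and 93.6 CPM in those with low loin weight. The 2 groups did not overlap, and the log2 fold change was 0.57 (SE 0.183, adjusted p = 0.0483, edgeR). This call was lost without any 1 of the 6 Hampshire pigs, with adjusted p-values from 0.0544 without high loin weight pig 9 to 0.153 without high loin weight pig 10. Without low loin weight pigs 1, 2 and 3 in turn the adjusted p-value was 0.0847, 0.149 and 0.121, and without high loin weight pig 8 it was 0.0816. In Pietrain FDFT1 was at 114 to 126 CPM with high and 103 to 143 CPM with low loin weight, and the log2 fold change was -0.08 (SE 0.173, adjusted p = 0.953). The difference of the effects between breeds was 0.69 (SE 0.242, adjusted p = 0.109, edgeR; 0.0451 by DESeq2).

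SQLE and LSS turn squalene into lanosterol, and neither was called in any of the comparisons as fitted here. SQLE (ENSSSCG00000005970), squalene epoxidase and a rate-limiting enzyme of the pathway, had 4 to 84 reads per pig. It was at 0.681, 1.91 and 0.831 CPM in Hampshire pigs with high and at 2.33, 1.70 and 1.40 CPM in those with low loin weight. In Pietrain it was at 0.289, 3.57, 4.35 and 0.750 CPM with high and at 6.90, 4.27 and 4.97 CPM with low loin weight. Its highest level was 23.8 times its lowest, the widest range of the 9 enzymes, and the high and low groups overlapped in both breeds. The log2 fold change was -0.71 (SE 0.453, adjusted p = 0.270, edgeR) in Hampshire and -1.24 (SE 0.688, adjusted p = 0.939) in Pietrain. LSS (ENSSSCG00000021418, chromosome 13 from 218517420 to 218540493), which cyclizes squalene epoxide to lanosterol, was at 3.55 to 5.35 CPM in Hampshire and 4.10 to 8.62 CPM in Pietrain. Between the breeds SQLE was at -1.57 on the log2 scale at low loin weight (SE 0.693, adjusted p = 0.121), and -1.55 (adjusted p = 0.0167, edgeR) when the fit held only these pigs. With loin weight, LSS had a log2 fold change of -0.05 (SE 0.257) and 0.11 (SE 0.322), both smaller than their standard errors.

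CYP51A1 (ENSSSCG00000015311, chromosome 9 from 78792885 to 78814967), the lanosterol demethylase, is the first enzyme to act on lanosterol. It was at 11.0, 9.09 and 10.6 CPM in Hampshire pigs with high and at 30.7, 16.9 and 17.7 CPM in those with low loin weight. In Pietrain it was at 16.3, 30.8, 26.0 and 19.4 CPM with high and at 35.1, 50.7 and 29 CPM with low loin weight. The Hampshire groups did not overlap, and in Pietrain only high loin weight pig 2 exceeded the lowest pig of the low group. The log2 fold change was -1.10 (SE 0.261, adjusted p = 0.0175, edgeR) in Hampshire and -0.69 (SE 0.263, adjusted p = 0.939) in Pietrain. In Hampshire the adjusted p-value was 0.0518 without high loin weight pig 9 and 0.0522 without pig 10. The difference between the breeds' effects was -0.36 (SE 0.398, adjusted p = 0.644), so an unequal effect was not shown. By mean level the groups followed the same order as for HMGCS1, from Hampshire high, given above, through 21.8 ± 7.76 CPM (SD, n = 3) in Hampshire low and 23.1 ± 6.53 (n = 4) in Pietrain high to 38.3 ± 11.2 (n = 3) in Pietrain low. The middle groups overlapped with each other, and Pietrain high overlapped with Pietrain low.

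MSMO1 (ENSSSCG00000008857, chromosome 8 from 45557528 to 45618352) oxidizes methyl groups of the sterol ring after CYP51A1. It was at 9.33, 4.18 and 7.16 CPM in Hampshire pigs with high and at 8.27, 7.29 and 5.61 CPM in those with low loin weight, with a log2 fold change of -0.03 (SE 0.304, adjusted p = 0.944, edgeR) that became 0.27 with the gene length trend removed. In Pietrain it was at 9.12 to 20.7 CPM with high and 16.1 to 17.2 CPM with low loin weight. The listed span of MSMO1, introns included, overlaps that of CPE, and the library kit does not mark strand. Whether exons of the 2 genes overlap, so that reads could not be told apart, was not examined. SQLE and DHCR7 have no listed span and were not checked for such overlaps. DHCR7 (ENSSSCG00000021181), which reduces the last precursor to cholesterol, had 6 to 31 reads per pig. It was at 0.981 to 1.51 CPM in Hampshire and 0.420 to 0.844 CPM in Pietrain, so that every Hampshire pig was above every Pietrain pig. The share of all genes that separate the breeds in this way was not counted. With loin weight its log2 fold change was 0.02 (SE 0.353) in Hampshire, with a sign that changed under other filters on low counts, and 0.09 (SE 0.490) in Pietrain.

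**Figure D2:**
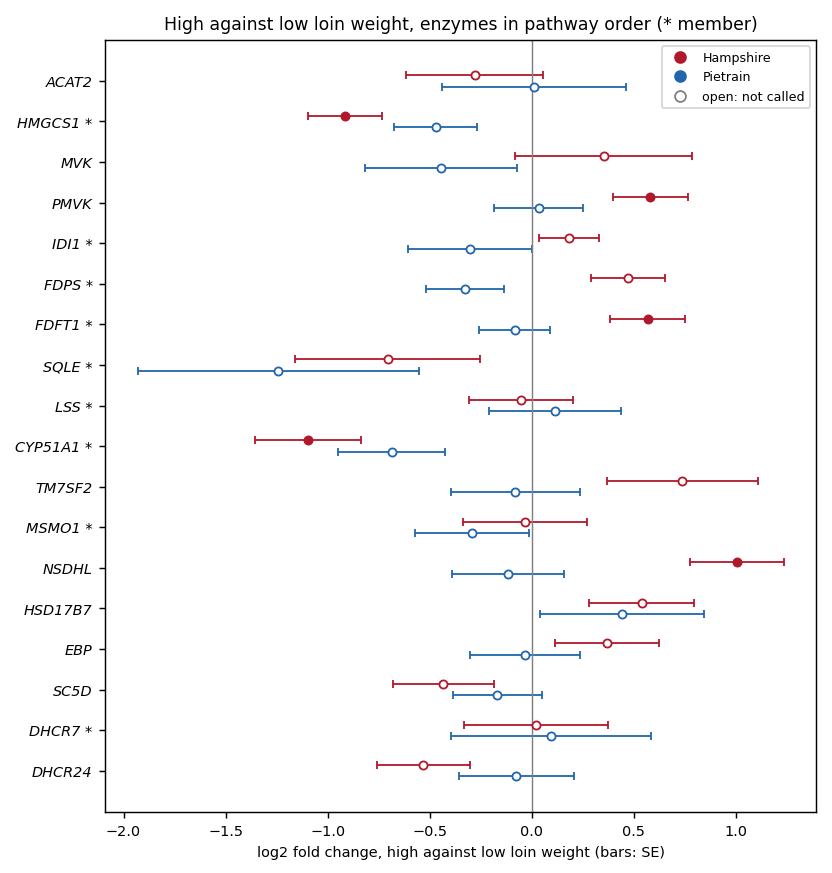
Log2 fold change of high against low loin weight (horizontal axis; bars, SE) for 18 enzymes in pathway order from top to bottom, in Hampshire (red) and Pietrain (blue), with filled points for DEGs and a star for the 9 enzymes of the list. In Hampshire HMGCS1 and CYP51A1 lie below 0 and PMVK, FDFT1 and NSDHL above 0 as DEGs, and in Pietrain no point is filled.

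Counted by separation of the groups, 3 enzymes in Hampshire were higher in all high loin weight pigs (IDI1, FDPS and FDFT1) and 2 were lower in all (HMGCS1 and CYP51A1). In Hampshire 45.9% of all genes tested had groups that did not overlap, 22.4% with the high group above and 23.5% with it below. In Pietrain 2 enzymes were lower in all high loin weight pigs (HMGCS1 and FDPS), beside 2.51% of all genes in that direction and 4.59% in either. The other 4 enzymes in Hampshire and 7 in Pietrain overlapped. The adipocyte, macrophage and fibroblast marker sums separated the Hampshire groups as given above. By edgeR, 2 of 3 adipocyte, 3 of 8 macrophage and 3 of 5 fibroblast markers were higher DEGs with high loin weight, beside 12% of all genes. Of 6 skeletal muscle markers 2 were higher (CKM and MYH7) and 1 was lower (MYH1), of 5 smooth muscle and pericyte markers 1 was higher, and the other lists had 0 DEGs. The part of the markers in the results on the enzymes was not tested.

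Averaged over both breeds in 1 fit of all 13 pigs, HMGCS1 and CYP51A1 were lower with high loin weight, and none of the other 7 enzymes passed. The log2 fold change was -0.71 (SE 0.142, adjusted p = 0.00919, edgeR) for HMGCS1 and -0.91 (SE 0.199, adjusted p = 0.0127) for CYP51A1. Over all genes 10.7% were DEGs in this comparison and 7.71% lower DEGs, beside 2 of 9 enzymes. Both calls stayed in all 13 fits that left out 1 pig. They were lost in a fit with additive terms for breed and loin weight, where the log2 fold changes were -0.69 and -0.89, each with an adjusted p of 0.115, and where 0 of 12831 genes were DEGs by edgeR. This comparison shares its pigs with those within breeds and is no further evidence of their direction. For the difference of the loin weight effect between breeds, 0 of 9 enzymes passed by edgeR, beside 5.9% of all genes. DESeq2 called FDPS and FDFT1, both with a more positive effect in Hampshire.

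Between breeds, HMGCS1 and MSMO1 were lower in Hampshire at both loin weights. At low loin weight 4 of 9 enzymes were lower DEGs, beside 10.1% of all genes (17.9% in either direction), and 8 of 9 had a negative log2 fold change, beside 49.7% of all genes. The values were -1.02 (SE 0.209, adjusted p = 0.0130) for HMGCS1, -0.94 (SE 0.289, adjusted p = 0.0388) for IDI1, -0.55 (SE 0.177, adjusted p = 0.0459) for FDFT1 and -1.23 (SE 0.321, adjusted p = 0.0242) for MSMO1 (edgeR). The median of the 9 enzymes was -0.81, beside 0.0042 over all genes. The 9 other measured enzymes of the pathway did not share this shift, with a median of -0.025 and 5 of 9 below 0. The folds changed little when 1 pig was left out, from -1.04 to -0.92 for HMGCS1, which stayed a DEG in 10 of 13 fits, and from -1.34 to -1.05 for MSMO1, which did in 9 of 13. IDI1 stayed a DEG in 4 (-1.10 to -0.77) and FDFT1 in 2 of 13 (-0.63 to -0.41). Without Hampshire low loin weight pig 2, Pietrain low loin weight pig 5 or Pietrain low loin weight pig 8, 0 enzymes were DEGs, and of all genes 0.828%, 1.23% and 0.842% were. Without Hampshire low loin weight pig 3 only HMGCS1 was a DEG, among 3.78% of all genes, and 2 enzymes (HMGCS1 and MSMO1) were without Hampshire high loin weight pig 8, 9 or 10 or Pietrain high loin weight pig 1. CYP51A1 had a log2 fold change of -0.81 (SE 0.289, adjusted p = 0.0640) and was a DEG by DESeq2 (adjusted p = 0.0302) or without Hampshire low loin weight pig 1 (adjusted p = 0.0307, edgeR).

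At high loin weight 3 enzymes were lower and 1 was higher in Hampshire than in Pietrain, in a comparison in which 46.8% of all genes were DEGs (24.2% lower and 22.6% higher), so that 4 of 9 enzymes is close to the share of all genes. HMGCS1 had a log2 fold change of -1.42 (SE 0.203, adjusted p = 0.000126, edgeR), CYP51A1 of -1.17 (SE 0.282, adjusted p = 0.00403) and MSMO1 of -0.93 (SE 0.305, adjusted p = 0.0221). FDPS was the higher one, at 0.60 (SE 0.176, adjusted p = 0.0125). HMGCS1 and CYP51A1 stayed DEGs whichever pig was left out. FDPS was lost without Hampshire high loin weight pig 9 (adjusted p = 0.0640) and MSMO1 without that pig (0.0861) or Pietrain high loin weight pig 6 (0.0551, edgeR). With the gene length trend removed FDPS (adjusted p = 0.0709) and MSMO1 (0.199) were lost and IDI1 was gained, at -1.08 (adjusted p = 0.0157, edgeR). LSS, at -0.69 (SE 0.291, adjusted p = 0.0648), became a DEG without Pietrain high loin weight pig 6, Pietrain low loin weight pig 3 or Pietrain low loin weight pig 8 (adjusted p = 0.0409, 0.0480 and 0.0483). DHCR7 was not called at either loin weight, with 0.87 (SE 0.429, adjusted p = 0.159) at low and 0.84 (SE 0.394, adjusted p = 0.0948) at high loin weight. Of the marker lists, the summed macrophage markers were higher in Hampshire without overlap, at 51.6 to 126 against 15.9 to 28.1 CPM with low and 155 to 218 against 19.6 to 58.9 CPM with high loin weight. The summed skeletal muscle markers were too, at 142917 to 219352 against 121210 to 138442 CPM with low and 187313 to 272997 against 101249 to 175462 CPM with high loin weight. Taken singly, 0 of these 6 skeletal muscle markers were DEGs at low loin weight, and 2 had a negative log2 fold change. At high loin weight 3 of 6 were higher DEGs and 1 was below 0, beside 22.6% of all genes as higher DEGs. Of the 8 macrophage markers 6 were higher DEGs at low loin weight, beside 17.9% of all genes as DEGs in either direction. All 8 were higher DEGs at high loin weight, beside 22.6% of all genes. The breeds were also apart for the adipocyte markers at high loin weight (170 to 292 against 42.2 to 84.3 CPM) and for 3 satellite cell markers at low loin weight (50.3 to 52.0 against 21.9 to 35.6 CPM). Taken singly, 1 of 3 adipocyte and 2 of 3 satellite cell markers were higher DEGs in these comparisons. How many of all genes separate the breeds in this way was not counted. The part of these markers in the results was not tested.

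**Figure D3:**
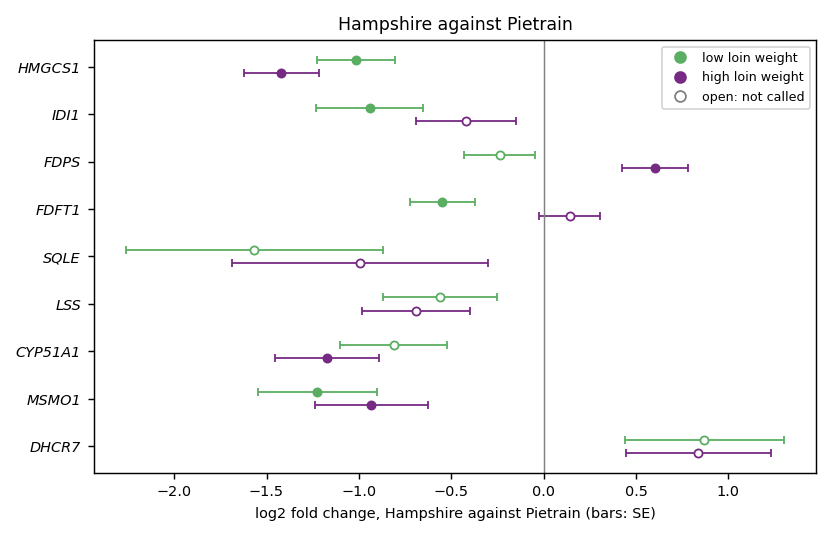
Log2 fold change of Hampshire against Pietrain (horizontal axis; bars, SE) for the 9 enzymes in pathway order from top to bottom, at low (green) and high (purple) loin weight, with filled points for DEGs. HMGCS1 and MSMO1 are filled and below 0 at both loin weights, and FDPS is above 0 at high loin weight only.

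Of the other enzymes of the pathway, 9 of 11 listed symbols were measured, and in Hampshire 2 of them were higher DEGs and 0 lower. NSDHL, which acts with MSMO1 on the sterol ring, was at 11.8, 10.3 and 7.35 CPM with high and at 4.65, 5.44 and 4.41 CPM with low loin weight. The high group was higher by 1.01 on the log2 scale (SE 0.229, adjusted p = 0.0151, edgeR). Omitting low loin weight pig 3 ended the call (adjusted p = 0.0687). PMVK, a kinase of the mevalonate steps, had a log2 fold change of 0.58 (SE 0.182, adjusted p = 0.0447), a call that was lost whichever Hampshire pig was omitted (adjusted p from 0.0709 without high loin weight pig 9 to 0.162 without low loin weight pig 3, edgeR). With the list enzymes added, 5 of 18 enzymes were DEGs in Hampshire, 3 higher and 2 lower, near the 26.6% of all genes, and their median log2 fold change was 0.10. In Pietrain 0 of 18 were DEGs. Between breeds, 5 of 18 were DEGs at low loin weight, all lower in Hampshire (SC5D beside the 4 named). Over all genes 10.1% were lower DEGs there and 17.9% were DEGs in either direction. SC5D kept its call in 9 of 13 fits that left out 1 pig. With high loin weight 9 of 18 were DEGs, 4 higher and 5 lower, near the 46.8% of all genes. At high loin weight the 9 enzymes outside the list had a median log2 fold change of 0.47, with 6 above 0. The list enzymes had a median of -0.69 there, with 3 above 0. Of the 2 measured electron donors, 0 were DEGs with loin weight in either breed. Between breeds they went opposite ways. CYB5R3 was higher in Hampshire than in Pietrain at both loin weights, by 0.88 (adjusted p = 0.0375) and 1.62 (adjusted p = 0.000205, edgeR) on the log2 scale. At low loin weight the call for CYB5R3 was lost without Hampshire low loin weight pig 2 or 3 or Pietrain low loin weight pig 5 or 8 (adjusted p = 0.186, 0.0670, 0.129 and 0.128). CYB5A was a lower DEG in Hampshire at low loin weight, at -0.69, and kept that call in 7 of 13 fits that left out 1 pig. With high loin weight it was at -0.36 and was not called. Over all genes 17.9% were DEGs at low and 46.8% at high loin weight.

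Among the regulators of SREBP, 1 of 5 was a DEG in Hampshire, beside 26.6% of all genes. INSIG1, the sterol-dependent anchor of SCAP and itself a target of SREBP2, was at 6.33, 5.09 and 6.01 CPM with high and at 15.9, 16.6 and 9.81 CPM with low loin weight. The groups did not overlap, and the log2 fold change was -1.28 (SE 0.243, adjusted p = 0.00815, edgeR), a DEG whichever Hampshire pig was left out. In Pietrain INSIG1 was at 10.9, 17.8, 12.2 and 13.7 CPM with high and at 36.1, 14 and 32.9 CPM with low loin weight, and a log2 fold change of -1.0 (SE 0.324, adjusted p = 0.939) did not pass. SREBF2 itself had -0.63 (SE 0.234, adjusted p = 0.0756) in Hampshire and 0.19 (SE 0.324, adjusted p = 0.947) in Pietrain.

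Of the genes of sterol uptake and transport, 5 were tested, and in Hampshire 1 was higher and 0 lower, beside 12% and 14.6% of all genes. NPC2, which hands cholesterol out of the lysosome, was higher by 0.63 on the log2 scale (SE 0.177, adjusted p = 0.0308, edgeR). It kept that call without high loin weight pig 8 only, with adjusted p-values of 0.0989 and 0.0667 without high loin weight pigs 9 and 10 and of 0.0977, 0.0754 and 0.0808 without low loin weight pigs 1, 2 and 3. Of 5 genes tested for sterol efflux and the LXR receptors, 1 was higher and 1 lower in Hampshire, again beside 12% and 14.6% of all genes. NR1H3, which encodes LXR alpha, an oxysterol-activated receptor, was at 30.9, 35.8 and 31.1 CPM with high and at 18.1, 16.5 and 15.8 CPM with low loin weight, with a log2 fold change of 0.95 (SE 0.157, adjusted p = 0.00534, edgeR). The lower one was 1 of 2 identifiers that carry the name ABCA1, a cholesterol exporter, with 3, 1 and 3 reads against 17, 17 and 18 reads, and it was no DEG with all 4 groups in the fit (adjusted p = 0.0633, edgeR). The other ABCA1 identifier did not pass (log2 fold change -0.05, SE 0.364, adjusted p = 0.931).

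**Figure D4:**
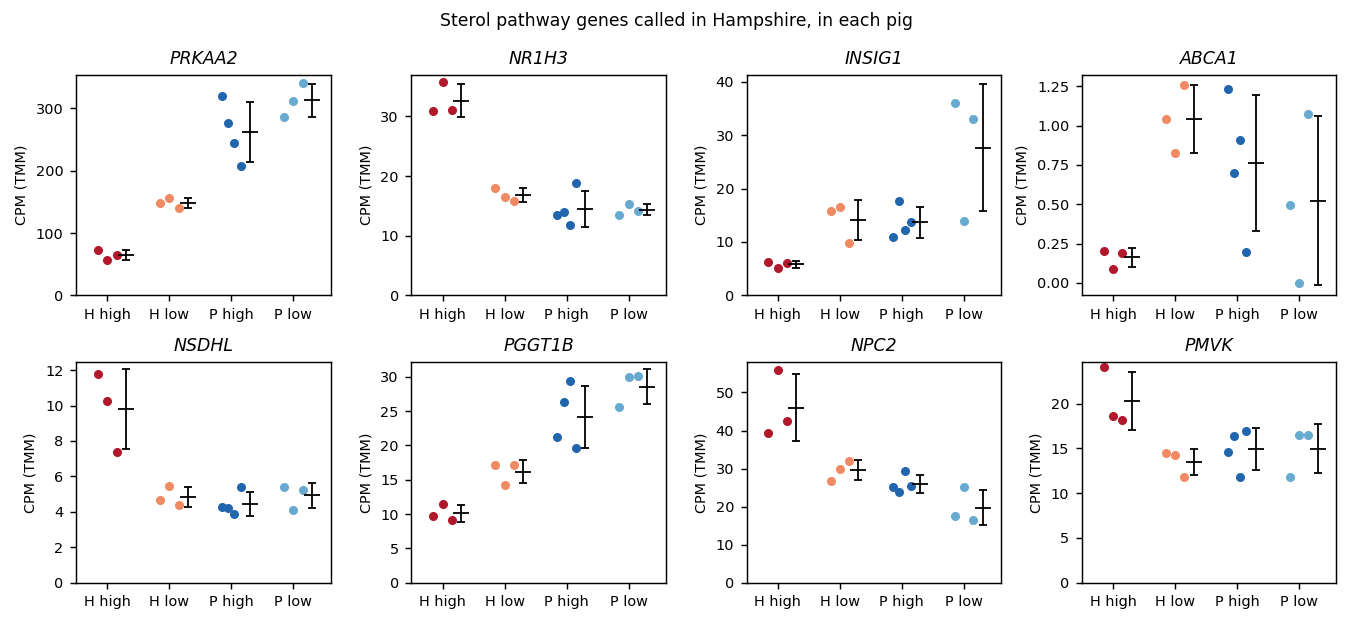
Levels in CPM (vertical axes) of 8 genes around the pathway that were DEGs in Hampshire, 1 coloured point per pig, with the group mean (dash) and SD (bar) in black. In Hampshire pigs with high loin weight NR1H3, NSDHL, NPC2 and PMVK are above and PRKAA2, INSIG1, ABCA1 and PGGT1B below those with low loin weight.

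Pigs of the same group still differed, and the enzymes varied together only in part. After the group means were removed from the log2 CPM, 24 of 36 pairs of enzymes had a Pearson r above 0 over the 13 pigs, with a median of 0.16. The 6 pairs above 0.5 were HMGCS1 with IDI1, CYP51A1 and MSMO1, CYP51A1 with SQLE and MSMO1, and IDI1 with DHCR7. LSS had an r of -0.70 with IDI1 and with FDFT1. These values describe 13 libraries that share the same scaling, and no test was made. Ranked over 12830 genes by r with CYP51A1, the first 5 genes with a symbol were LYRM7 (0.92), an assembly factor of respiratory complex III, RAD51C (0.87), a DNA repair protein, OSTC (0.86), a subunit of oligosaccharyltransferase, PRMT9 (0.85), an arginine methyltransferase, and CAPRIN2 (0.84), an RNA-binding protein. MSMO1 (0.52), SQLE (0.52) and HMGCS1 (0.51) stood at ranks 739, 743 and 783, and DHCR7 (-0.14) at rank 8297. None of the other 8 enzymes was among the highest 5% of genes, whereas with group means kept HMGCS1 (0.90) was, at rank 26.

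**Figure D5:**
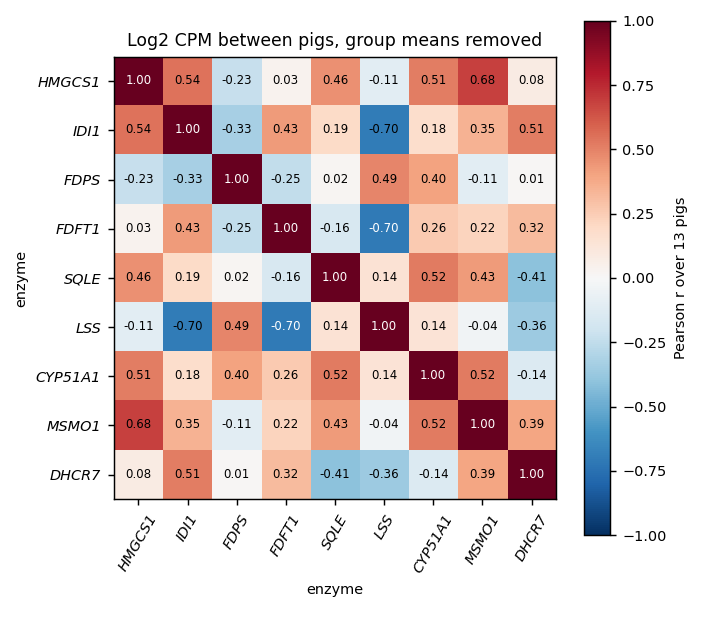
Pearson r over 13 pigs between the log2 CPM of each pair of the 9 enzymes after group means were removed (red, above 0; blue, below 0; both axes list the enzymes in pathway order). HMGCS1 with MSMO1 has the highest value off the diagonal, 0.68, and LSS with IDI1 and FDFT1 the lowest, -0.70.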

How the data were processed

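The authors sequenced longissimus lumborum RNA of 13 pigs with an unstranded kit (TruSeq RNA v2), in 4 technical repetitions that are not shown separately. The authors deposited whole-number counts of reads per Ensembl gene and pig, without normalization. The labels name FastQC, STAR, RSEM and DESeq2 and the build Sscrofa10.2, without their roles; had the counts been RSEM estimates, they were rounded before deposit. From the authors' tables of comparisons only coordinates and symbols were used; their fold changes and p-values were not. Of 25322 genes, 13168 had a symbol, the missing ones from RefSeq (Sscrofa11.1, names only). Of 60 pathway symbols 50 matched, and of 58 marker symbols 41 matched.

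All genes were fitted with edgeR 4.0.16 under R 4.3.3 (TMM, filterByExpr, quasi-likelihood test), within each breed, and in 1 fit of all 4 groups for the other comparisons, with Benjamini-Hochberg adjustment. Standard errors come from the log2 fold change and F. DESeq2 1.42.0 and limma 3.58.1 served as alternatives. Correlations used log2 of CPM plus 0.5. The pigs are separate animals. The script was tested on simulated data. The named genes were the 9 enzymes, up to 8 called genes of the lists per comparison by smallest p, and the 5 genes most like CYP51A1; SREBF2 and ACACA are added to them, as are marker genes. The members and lists were chosen with earlier results of these data known. A table of the study gives 3 Pietrain pigs with high loin weight, the labels 4, and all 4 were used. Promoter and protein sequences were not used here, and a few further genes around the pathway are not reported here. Copies of FDPS and CYP51A1 are known in mammalian genomes, and reads shared with such copies were not examined. The precision is limited by 3 or 4 pigs per group. Alternatives were DESeq2, its size factors in edgeR, no filter, at least 10 counts in every pig, no fold change threshold, a gene length trend removed (lowess, span 0.3), other sets of samples in the fit, and leaving out each pig. Gene length was the genomic distance from start to end, introns included, and was known for 9975 genes. Genes without it, SQLE and DHCR7 among them, had no trend removed.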

Additional observations from a re-analysis of the deposited data

Results flagged for a closer look

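Opposite order in the breeds set FDPS apart. Every Hampshire pig with high loin weight was above every one with low loin weight, and in Pietrain every high loin weight pig was below. The loin weight effect was more positive in Hampshire by 0.842 on the log2 scale, with an adjusted p of 0.0723 in edgeR. Leaving out each pig in turn gave 0.63 to 0.91, with adjusted p-values from 0.0534 to 0.240.

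For PRKAA2, the catalytic AMPK subunit that predominates in skeletal muscle, the loin weight effect differed between breeds by -0.926 on the log2 scale (adjusted p = 0.0412, edgeR). It was at 73.3, 57.4 and 64.9 CPM in Hampshire pigs with high and at 148, 156 and 140 CPM in those with low loin weight. In Pietrain PRKAA2 was no DEG, and its high and low groups overlapped. Over all genes 5.9% were called for such a difference between breeds. The difference missed the threshold in 10 of 13 fits that left out 1 pig, with adjusted p-values from 0.0193 to 0.0759 over all of them.

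NR1H3 differed by 0.938 on the log2 scale (adjusted p = 0.0453, edgeR), with a log2 fold change of 0.95 in Hampshire and 0.06 (SE 0.219) in Pietrain. This was lost in 12 of 13 fits that left out 1 pig, with adjusted p-values from 0.0126 to 0.157 over all of them. No sample stood apart among the 23 genes that were checked in the 4 Pietrain pigs with high loin weight.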

How the results depend on the processing

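Of 1472 values recomputed under the alternatives, 1251 kept their direction and side of the threshold, 173 no longer passed, 9 newly passed and 39 changed sign. Where 1 pig was left out, the number of enzymes called was 1 to 2 in Hampshire (3 with all pigs; 1 without high loin weight pig 9 or 10), 0 in Pietrain, 0 to 4 between breeds at low and 2 to 5 at high loin weight. The difference between breeds gave 2 enzymes with DESeq2 and 0 with edgeR, and the pooled effect 0 in the additive fit. The number of enzymes among the genes most like CYP51A1 was 1 with group means kept and 0 otherwise.

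Signs changed mostly for values near 0. In Hampshire the gene length trend turned IDI1 to -0.22 and MSMO1 to 0.27, and DHCR7 became -0.019 with no filter and -0.051 with at least 10 counts. The pooled value of FDPS became -0.029 with the gene length trend removed. Over fits without 1 pig, the log2 fold changes that changed sign ranged in Hampshire from -0.21 to 0.15 for LSS, -0.33 to 0.19 for MSMO1 and -0.15 to 0.18 for DHCR7. In Pietrain they ranged from -0.19 to 0.0031 for FDFT1, -0.12 to 0.45 for LSS and -0.052 to 0.29 for DHCR7. The difference between breeds ranged from -0.038 to 1.05 for SQLE, -0.50 to 0.042 for LSS, -0.045 to 0.52 for MSMO1 and -0.26 to 0.078 for DHCR7. The pooled effect ranged from -0.22 to 0.0099 for IDI1, -0.024 to 0.13 for FDPS, -0.11 to 0.16 for LSS and -0.056 to 0.12 for DHCR7, and the breed difference at high loin weight from -0.031 to 0.19 for FDFT1. The cause of these changes was not tested.

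Over all genes, Hampshire DEGs numbered 3256, and 1224, 1760 and 2091 without low loin weight pig 3, high loin weight pig 10 and high loin weight pig 9. Without low loin weight pig 2 they numbered 2179. The difference between breeds had 757 DEGs, 1242 with DESeq2, 461 with the gene length trend removed and 379 to 1052 without 1 pig. The pooled effect had 1375 DEGs, 0 in the additive fit, 903 with the gene length trend removed and 679 to 2310 without 1 pig. Between breeds at low loin weight 2300 genes were DEGs, and 109 to 3091 without 1 pig. No paired analysis was possible because high and low pigs of a breed share no number and equal numbers in the 2 breeds mark different animals. Where 1 pig was left out of 3, the spread was pooled over the groups of the fit. SQLE and DHCR7 had the fewest reads, 4 to 84 and 6 to 31 per pig.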

Other observations

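Several lists around the pathway were measured besides. Of the isoprenoid branches 6 genes were tested and 1 was lower in Hampshire pigs with high loin weight, beside 14.6% of all genes. This was PGGT1B, which attaches geranylgeranyl groups to proteins, at -0.68 on the log2 scale (SE 0.179, adjusted p = 0.0245, edgeR; 0.0855 without high loin weight pig 10, 0.0929 without low loin weight pig 3, and 0.254 with the gene length trend removed). GGPS1, which makes geranylgeranyl diphosphate from the product of FDPS, was at -0.78 (SE 0.281, adjusted p = 0.0679) in Hampshire, and against Pietrain it was lower in Hampshire at low (-1.20, adjusted p = 0.0130) and at high loin weight (-1.42, adjusted p = 0.000456). Without Hampshire low loin weight pig 2 or Pietrain low loin weight pigs 5 or 8 the GGPS1 call at low loin weight was lost (adjusted p = 0.0739, 0.0558 and 0.0577). NUS1 and PGGT1B were also lower DEGs in Hampshire at both loin weights, so that 3 of 6 genes were. Over all genes 10.1% were lower DEGs at low and 24.2% at high loin weight. NUS1 and PGGT1B each kept the call at low loin weight in 9 of 13 fits that left out 1 pig.

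Fatty acid synthesis, which uses the same acetyl-CoA, had 1 lower DEG of 6 in Hampshire, beside 14.6% of all genes. ACACA, acetyl-CoA carboxylase, was at -1.0 (SE 0.324, adjusted p = 0.0499, edgeR), and it kept that call in only 1 of 6 fits that left out 1 pig, the one omitting high loin weight pig 9 (0.0367). The range over these fits was 0.0367 to 0.135, and over the other settings 0.0279 to 0.193. In Pietrain 0 of these genes passed, and 0 of 6 had an unadjusted p under 0.05 (edgeR). There 5 of 6 fatty acid genes had a positive log2 fold change, beside a median of 0.020 over all genes. ACACA was at 0.84 (SE 0.425, adjusted p = 0.939). The catalytic AMPK subunits had 1 lower DEG of 3 identifiers in Hampshire, beside the same share. This was PRKAA2, at -1.18 (SE 0.159, adjusted p = 0.00276, edgeR).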
